A study of Danio rerio with 8 samples.

Results

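The genes described here are 10 genes of the heart valves and of the atrioventricular canal, the narrow segment between atrium and ventricle where the first valves form. They were taken by name, with no threshold on their levels, but with earlier results of these data known. The 10 names led to 11 of the 31953 gene identifiers in the count files, because the name table gives the symbol NOTCH1 to 2 identifiers and does not say which of them is notch1b. The identifier listed without a name, ENSDARG00000037889, carries the symbol WNT9B there. Capital symbols are written as that table gives them.

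Valves arise from endocardium, the endothelial lining of the heart, over canal muscle. Blood flow over the canal endocardium induces Klf2 transcription factors, Notch and Nfatc1 act within the endocardial cells, Wnt and endothelin ligands signal to their neighbours, and hyaluronan and versican fill the cardiac jelly from which the cushions and leaflets take shape. In mouse and zebrafish, Wnt9b is known as an endocardial ligand downstream of Klf2.

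RNA was sequenced from hearts of TU strain zebrafish at 21 days post fertilisation (dpf), 3 libraries labelled control and 3 labelled zfpm1 mutant. The zfpm1 product is a zinc finger protein of the FOG family that binds GATA factors, and the series sought genes that act downstream of it in the maturation of the heart chambers. The labels used here name no mutant allele and do not say whether a library came from 1 animal or a pool. The p-values here reflect library-to-library spread alone, which may be partly technical. In bulk hearts, fewer cells of a type and less RNA per cell cannot be told apart.

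The heart libraries held 7614329 to 9909966 gene counts. The total of all lines of control replicate 1 was also that of the library labelled mutant embryo at 36 hours post fertilisation (hpf), and the total of mutant replicate 1 that of the library labelled control embryo, 22649056 and 19276348. Among genes that reached 50 counts there, the heart count was a median 0.504 and 0.503 of the embryo-labelled one. Both heart libraries numbered 1 thus go with files whose tissue and genotype labels differ from theirs. Each member is also given below without this pair. Other genes with a stated change are given so where that ends a call or moves a value by over 1.5 times. No such value is given for CNN1, MYLK, HEY2, DLD, ahsg1 or POSTN ENSDARG00000043806. zfpm1 itself (ZFPM1, ENSDARG00000041572) stood at 49.0 ± 5.80 CPM (library-size-scaled counts) in control and 69.2 ± 20.4 CPM in the mutants (SD, n = 3 each) and did not pass the test (edgeR adjusted p 0.241), which neither checks nor contradicts the labels. The muscle gene MYL7 stood at 12014 ± 1066 CPM in control and 7182 ± 1756 CPM in the mutants (adjusted p 0.266, and 0.0158 with DESeq2). Heart muscle RNA was thus present in all 6, which does not show that other tissue was absent.

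Genotypes were compared with edgeR's quasi-likelihood test over 16707 genes, and a gene was called at a Benjamini-Hochberg adjusted p under 0.05. All adjusted p-values below come from that fit unless DESeq2 is named. Levels are CPM scaled by the trimmed mean of M values (TMM) and log2 fold changes are of mutant over control hearts, with a standard error (SE). CPM are not scaled by gene length, so levels are compared between libraries and not between genes.

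All 11 identifiers passed the filter on low counts, WNT9B only through its mutant libraries, so that gene could enter the test only by being higher there. In mutant hearts 3 of the 11 rose, the ligand genes edn1, WNT11 and WNT9B, and 0 fell. Of all genes tested 9.43% were called, 7.02% as higher and 2.42% as lower. Since the members were chosen with earlier results known, their share of calls is not a test against this background. At an unadjusted p under 0.05 the members again gave 3 higher and 0 lower, where 14.5% of all tested genes were higher and 9.14% lower. DESeq2 also called 3 higher and 0 lower, where it called 13.5% of all tested genes, 9.36% as higher and 4.17% as lower. Control and mutant libraries did not overlap in the same 3 members, all higher in mutants, where 29.7% of all tested genes were apart and 16.8% in that direction. The median log2 fold change of the 11 was 0.26, with WNT9B set to its lower bound as well, against -0.01 over all tested genes. Without both libraries numbered 1 the members gave 3 calls, all higher, when 7.42% of 16922 tested genes were called.

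**Figure D1:**
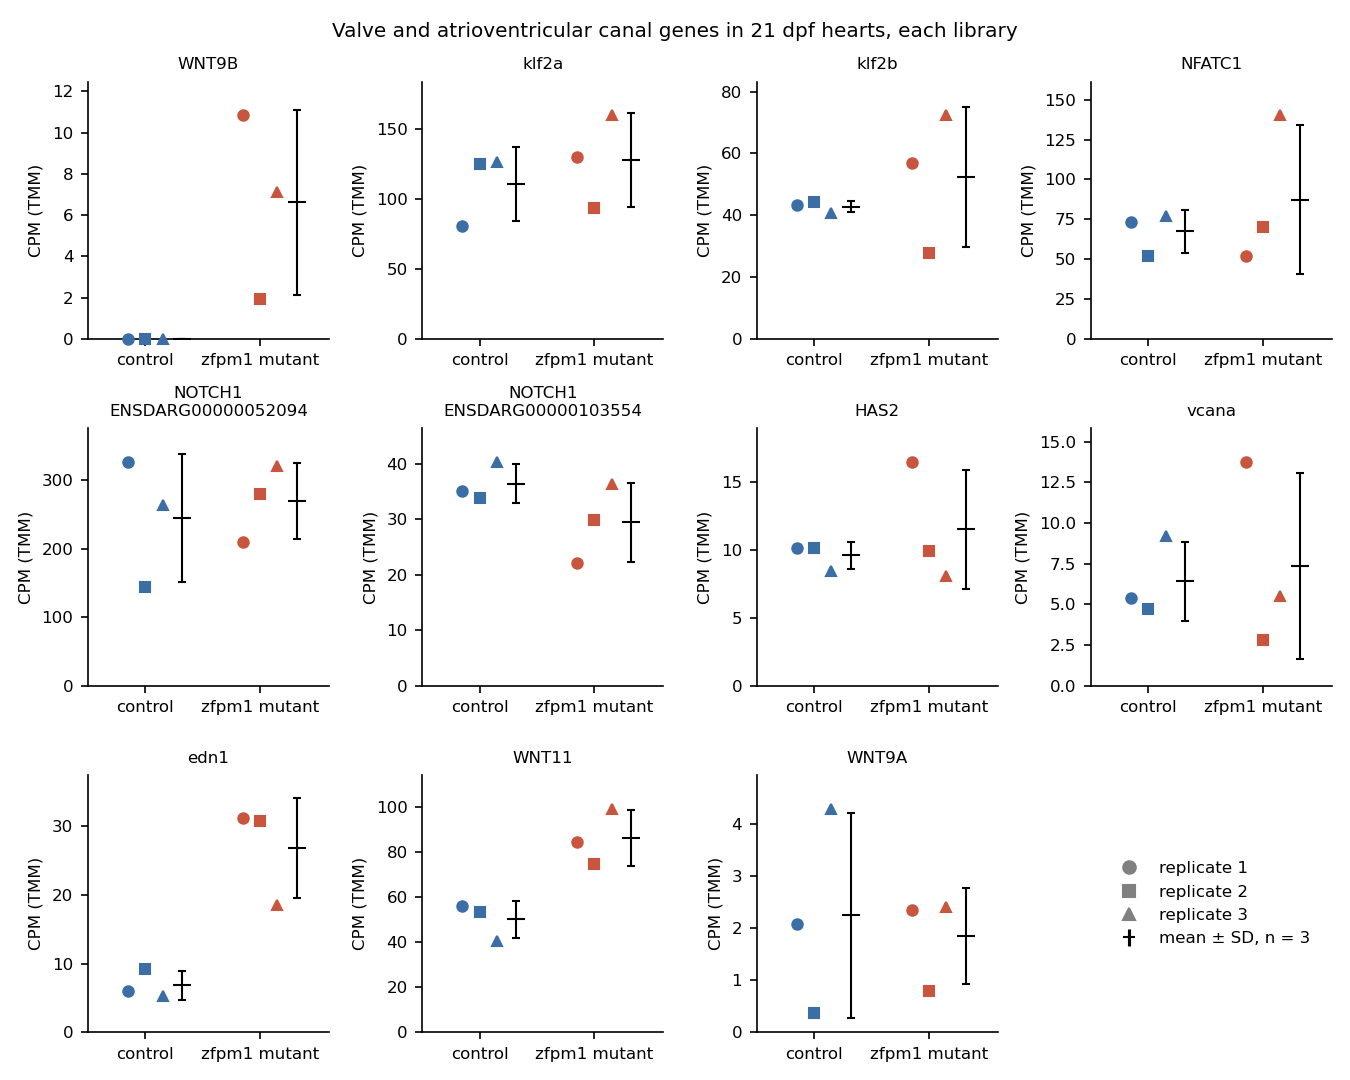
Level of each member in each heart library, in TMM-scaled CPM on axes that start at 0. Symbols mark the replicate, blue is control and red is zfpm1 mutant, and the bar is the mean ± SD of 3 libraries. Only for WNT9B, edn1 and WNT11 do all mutant libraries lie above all control libraries.

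Endothelin 1, encoded by edn1 (ENSDARG00000036912), is a peptide ligand made by endothelium that constricts vessels and signals to neural crest and muscle cells. Its level was 5.99, 9.25 and 5.30 CPM in control replicates 1 to 3 and 31.2, 30.7 and 18.5 CPM in mutant replicates 1 to 3. The lowest mutant library lay above the highest control library. Counts were 49, 75 and 42 in control and 279, 273 and 192 in mutant hearts. The group means were 6.85 ± 2.11 and 26.8 ± 7.21 CPM (SD, n = 3 each), which gave a log2 fold change of 1.97 (SE 0.31, 95% interval 1.27 to 2.67, edgeR adjusted p 0.00574), or 3.91-fold. The rise was called under all 13 alternative settings, with log2 fold changes from 1.78 to 2.25 and no adjusted p above 0.0412. Without both libraries numbered 1 the log2 fold change was 1.78 (adjusted p 0.0164). In control replicate 1 the edn1 count was 0.363 of the count in the matching embryo-labelled file, where the median gene had 0.504. In mutant replicate 1 it was 0.492 of the matching count, where the median gene had 0.503.

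Wnt11 is a Wnt ligand that mainly acts through the beta-catenin-independent branch and guides heart formation. WNT11 (ENSDARG00000014796) had 56.1, 53.6 and 40.7 CPM in control replicates 1 to 3 and 84.6, 74.96 and 99.4 CPM in mutant replicates 1 to 3. Counts were 459, 435 and 323 against 756, 666 and 1032. The groups did not overlap, and the spread within each was narrow, the highest library being 1.38 times the lowest in controls and 1.33 times in mutants. The means were 50.2 ± 8.27 and 86.3 ± 12.3 CPM (SD, n = 3 each), which gave a log2 fold change of 0.78 (SE 0.20, 95% interval 0.33 to 1.23, edgeR adjusted p 0.0415), or 1.72-fold. This call was close to the threshold. It was lost when any 1 of the 6 libraries was left out, with adjusted p between 0.0555, when mutant replicate 2 was omitted, and 0.201, when control replicate 3 was, and log2 fold changes from 0.64 to 0.88, and also without the low-count filter (adjusted p 0.0539). A fit with replicate number as a block lost the call as well. Without both libraries numbered 1 it held, at 0.90 (adjusted p 0.0379).

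WNT9B (ENSDARG00000037889) had no count in any control heart and 97, 17 and 74 counts in mutant replicates 1 to 3. These are 10.9, 1.91 and 7.13 CPM, so the mutant libraries differed 5.67-fold among themselves. Set against a floor of 3 counts over the control group, 0.124 CPM, the mutant mean of 6.63 ± 4.49 CPM (SD, n = 3) was at least 53.5-fold higher (edgeR adjusted p 0.00862). Without mutant replicate 1, 2 or 3 the bound was 36.5-fold, 72.6-fold or 51.5-fold. It was 24.2-fold without both libraries numbered 1, where the floor over the other controls is 0.187 CPM, with an adjusted p of 0.0126. Its call was kept under all 13 alternatives, with adjusted p up to 0.0351. Since WNT9B passed the low-count filter only through its mutant libraries, these adjusted p-values are not separate support for its rise. The floor covers counting error only. In the file labelled mutant embryo, which matches control replicate 1, WNT9B had 2 counts, and in the file labelled control embryo, which matches mutant replicate 1, it had 215.

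Wnt9a, a close relative of Wnt9b, is a ligand of the same pathway. WNT9A (ENSDARG00000063437) was counted sparsely, with 17, 3 and 34 counts in control and 21, 7 and 25 in mutant hearts. These are 2.08, 0.370 and 4.29 CPM against 2.35, 0.788 and 2.41 CPM, and the groups overlapped throughout. Its log2 fold change was -0.27 with an SE of 0.78 and a 95% interval from -2.03 to 1.49 (edgeR adjusted p 0.881), an interval that holds changes of 2-fold in either direction. Its sign turned without control replicate 3 (0.58) and without mutant replicate 2 (0.077), and it was -0.53 without both libraries numbered 1.

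**Figure D2:**
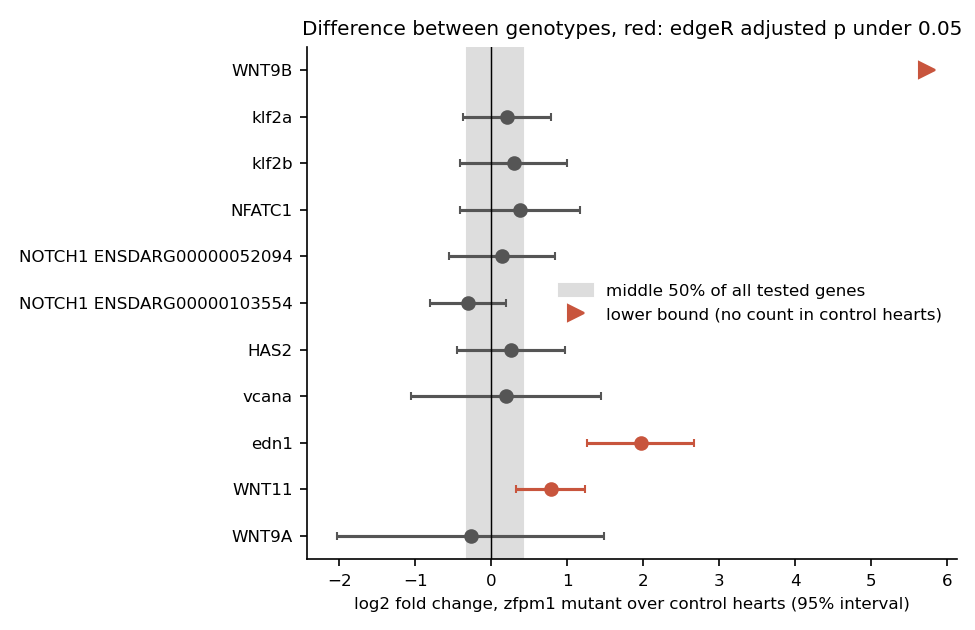
Log2 fold change of each member, zfpm1 mutant over control hearts, with its 95% interval from the edgeR fit; red marks called genes and the grey band the middle 50% of all tested genes, from -0.32 to 0.42. The arrow for WNT9B is a lower bound of 5.74. The intervals of the 8 members that were not called all include 0.

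The paired flow-responsive factors were not called. klf2a (ENSDARG00000042667), a zinc finger transcription factor that zebrafish endocardium needs for valve formation, stood at 80.5, 126 and 126 CPM in control and 130.1, 93.5 and 160.3 CPM in mutant replicates 1 to 3. Mutant replicate 2 lay below control replicates 2 and 3, while mutant replicates 1 and 3 lay above all controls. For klf2a the log2 fold change was 0.21 (SE 0.26, 95% interval -0.37 to 0.79, edgeR adjusted p 0.696), an interval that does not reach 2-fold. Without both libraries numbered 1 it was 0.024.

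Its paralog klf2b (ENSDARG00000040432) stood at 43.2, 44.3 and 40.7 CPM in control and 57.0, 27.7 and 72.4 CPM in the mutants. Controls agreed to within 1.09-fold, while the mutant libraries spanned 2.62-fold and lay on both sides of them. The log2 fold change was 0.29 (SE 0.31, 95% interval -0.41 to 1.00, edgeR adjusted p 0.639), 0.25 without both libraries numbered 1 and -0.023 without mutant replicate 3. In both klf2 genes mutant replicate 2 was the lowest mutant library and mutant replicate 3 the highest.

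NFATC1 (ENSDARG00000036168), a calcineurin-regulated transcription factor that marks valve endocardium in mouse and zebrafish, stood at 73.3, 51.9 and 77.2 CPM in control and 51.7, 70.1 and 140.4 CPM in the mutants. Mutant replicate 3 had the highest level of the 6 libraries and mutant replicate 1 the lowest. The log2 fold change was 0.37 (SE 0.35, 95% interval -0.42 to 1.17, edgeR adjusted p 0.584). Without mutant replicate 3 it was -0.15, and without both libraries numbered 1 it was 0.71 (adjusted p 0.243).

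Notch1 receptors act in the endocardium of the canal and ventricle. NOTCH1 ENSDARG00000052094 stood at 327, 144 and 264 CPM in control and 210.3, 280 and 320.3 CPM in the mutants, and the controls spanned 2.27-fold, more than the mutants. The log2 fold change was 0.14 (SE 0.31, 95% interval -0.55 to 0.84, edgeR adjusted p 0.840), -0.14 without control replicate 2, -0.0067 without mutant replicate 3 and 0.57 without both libraries numbered 1. NOTCH1 ENSDARG00000103554 stood at 35.1, 33.8 and 40.4 CPM in control and 22.2, 29.9 and 36.3 CPM in the mutants. There the groups overlapped through mutant replicate 3 alone, and the log2 fold change was -0.30 (SE 0.22, 95% interval -0.81 to 0.20, edgeR adjusted p 0.462; -0.15 without both libraries numbered 1). Neither receptor gene was called. Reads without a unique alignment, 11.1% to 21.8% of each heart file, were given to no gene, and these may include reads that fit both paralogs.

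The matrix genes were counted at low depth. HAS2 (ENSDARG00000036987), the synthase that makes the hyaluronan of the cardiac jelly, had 83, 82 and 67 counts in control and 147, 88 and 84 in mutant hearts, or 10.2, 10.1 and 8.45 CPM against 16.4, 9.91 and 8.09 CPM. Only mutant replicate 1 lay outside the range of the controls by more than their own spread. For HAS2 the log2 fold change was 0.26 (SE 0.31, 95% interval -0.44 to 0.97, edgeR adjusted p 0.684), and it was -0.073 without mutant replicate 1 and -0.028 without both libraries numbered 1.

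The versican gene vcana (ENSDARG00000103515), which encodes a hyaluronan-binding proteoglycan of the canal, had 44, 38 and 73 counts in control and 123, 25 and 57 in mutant hearts. Levels were 5.38, 4.69 and 9.21 CPM in control and 13.8, 2.81 and 5.49 CPM in the mutants. Mutant replicate 1 was again the highest of the 6 and mutant replicate 2 the lowest, a spread of 4.89-fold within the mutants. The log2 fold change was 0.19 (SE 0.55, 95% interval -1.06 to 1.44, edgeR adjusted p 0.881), -0.61 without mutant replicate 1 and -0.73 without both libraries numbered 1.

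**Figure D3:**
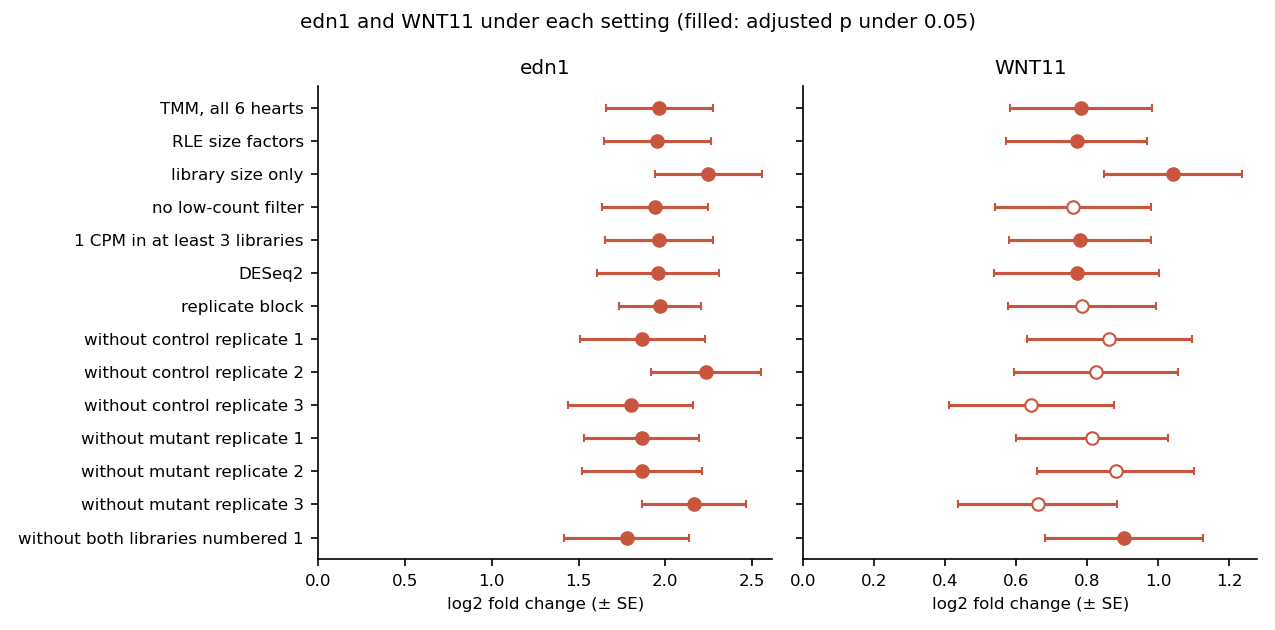
Log2 fold change (± SE) of edn1 and WNT11 under the 6-library TMM fit and 13 alternatives; filled circles have an adjusted p under 0.05. edn1 stays filled throughout, from 1.78 to 2.25, whereas WNT11 is open in 8 of the 13, between 0.64 and 0.88.

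The mutant libraries did not rank alike across the members. Mutant replicate 1 was the highest mutant library for WNT9B, edn1, HAS2 and vcana and the lowest for NFATC1 and both NOTCH1 identifiers, while mutant replicate 3 was the highest for klf2a, klf2b, NFATC1, both NOTCH1 identifiers, WNT11 and WNT9A. Mutant replicate 2 was the lowest for WNT9B, klf2a, klf2b, vcana, WNT11 and WNT9A.

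Each member was also set against the 205 other tested members and valve pathway genes by the Pearson r of log2 CPM over the 6 libraries, a description of 6 points that share libraries and genotype. The gene most like edn1 was ID2, a transcriptional inhibitor that BMP signals induce (r = 0.976). FN1 ENSDARG00000019815, a fibronectin, was the most like WNT9B (r = 0.967), and HEY1, a Notch target, the most like WNT11 (r = 0.949). For NOTCH1 ENSDARG00000052094 it was the TGF-beta co-receptor gene TGFBR3 (r = 0.991), and for NOTCH1 ENSDARG00000103554 it was HAS3 (r = 0.979). NFATC1 was nearest to RBPJ ENSDARG00000003398, a DNA-binding partner of Notch (r = 0.965), HAS2 to the Wnt inhibitor gene WIF1 (r = 0.956) and vcana to SFRP1 ENSDARG00000035521 (r = 0.933). klf2a and klf2b had no gene above 0.9, and their nearest were WNT4 (r = 0.870) and NFATC4 (r = 0.851). Genes above 0.9 numbered 13 for WNT9B, 11 for NOTCH1 ENSDARG00000052094, 9 for edn1 and 6 for WNT11. For these members the nearest gene was thus 1 of several. The remaining members had from 1 to 4 such genes. WNT9A was nearest to the calcineurin gene ppp3cca (r = 0.915).

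Beyond the members, 195 tested genes of 8 valve pathway lists gave 12 higher and 4 lower calls, 8.21% against 9.43% of all tested genes. Their median log2 fold change was 0.10. The count depended on single libraries: it was 7 without control replicate 2, 5 without control replicate 3 and 9 without mutant replicate 2. DESeq2 called 33, or 16.9%, against 13.5% of all tested genes. By list the share called by edgeR ran from 2.44% (Wnt) to 14.3% (endothelin, 7 genes), and it was 9.38% for BMP and TGF-beta. The background for the unadjusted counts below is 14.5% of all tested genes higher and 9.14% lower.

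**Figure D4:**
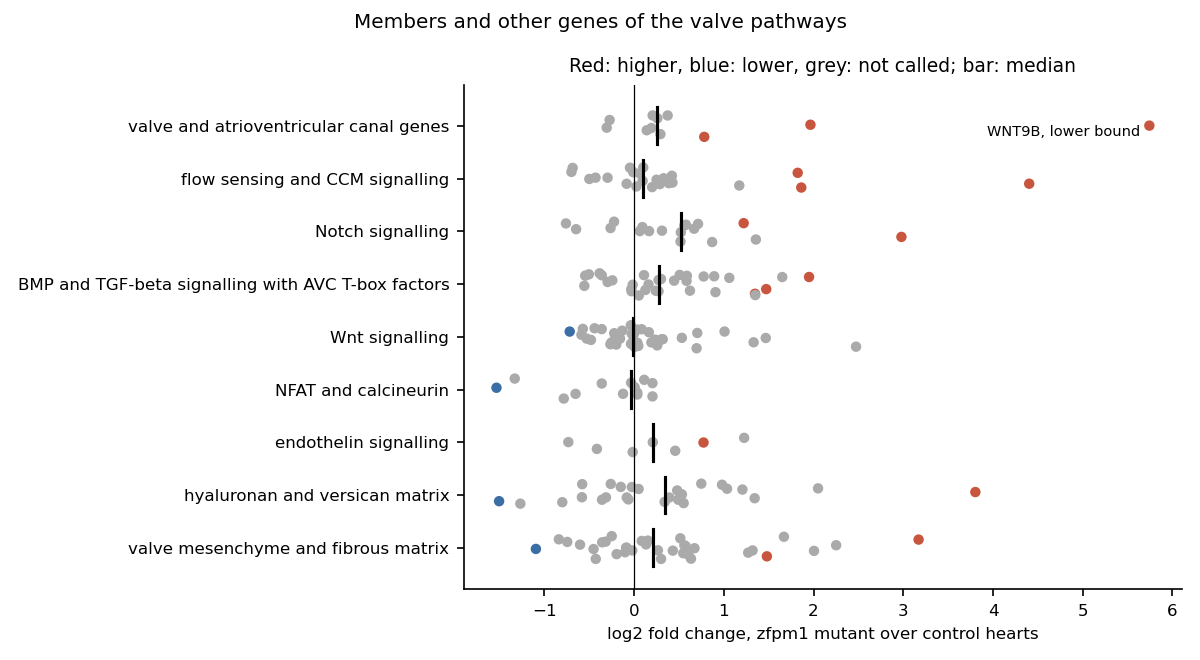
Log2 fold changes, zfpm1 mutant over control hearts, of the 11 members and of the tested genes in 8 pathway lists. Each point is a gene, red is called higher, blue is called lower, grey is not called, and the bar is the list's median; WNT9B is drawn at its lower bound of 5.74. The medians run from -0.03 (NFAT and calcineurin) to 0.52 (Notch).

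Of 23 genes of flow sensing and of the CCM (cerebral cavernous malformation) complex, which restrains Klf2, 3 rose and 0 fell, with a median of 0.10 (5 higher and 3 lower at an unadjusted p under 0.05; DESeq2 3 and 0). S1PR1, an endothelial sphingolipid receptor, rose from 4.76 ± 1.16 to 17.4 ± 4.68 CPM (log2 1.86 with SE 0.32, adjusted p 0.00801). The immediate-early gene egr1 rose from 35.6 ± 11.95 to 125.9 ± 52.6 CPM (log2 1.82 with SE 0.36), a call lost without control replicate 2 (adjusted p 0.0534). FOSB, of the same class, rose from 0.577 to 12.5 CPM (log2 4.403 with SE 0.96), and it passed the low-count filter only through its mutant libraries. Mutant replicate 2 held 28.9 CPM of it against 2.80 and 5.87 CPM in the others; the log2 fold change was 2.88 without that library, 5.002 without control replicate 1 and 5.50 without both libraries numbered 1. FOSB was no longer called without control replicate 2 or 3 or mutant replicate 2 (adjusted p up to 0.107).

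Of 18 identifiers matched to names of Notch pathway genes 2 rose and 0 fell, with a median of 0.52. At an unadjusted p under 0.05 there were 7 higher and 2 lower, and by DESeq2 4 and 0. The ligand gene dlc rose from 14.0 ± 3.11 to 32.7 ± 7.02 CPM (log2 1.22 with SE 0.26, adjusted p 0.0192). HEY1 rose from 0.287 ± 0.310 to 2.37 ± 0.555 CPM (log2 2.98 with SE 0.80, adjusted p 0.0497), and it too passed the low-count filter only through its mutant libraries. HEY1 was lost without any 1 library, without both libraries numbered 1 (adjusted p up to 0.165), with DESeq2's size factors as scaling (0.0507), without the low-count filter (0.0655) and with a filter of 1 CPM (0.0525), and its log2 fold change was 4.11 without control replicate 2. HEY1 was also lost with replicate number as a block. dlc was lost without control replicate 2 or 3 or mutant replicate 1 or 2 (adjusted p up to 0.0816). The 2 genes lower at an unadjusted p under 0.05 were HEY2, a relative of HEY1, and DLD (ENSDARG00000008785), neither of them called. DLD was reached from the listed name dld without regard to capitals, and it is not taken as the Notch ligand gene of that name. It stays in the counts and median of this list and in those over all pathway lists. HEY2 went from 58.9 ± 8.18 to 34.8 ± 12.4 CPM (log2 -0.76 with SE 0.26, adjusted p 0.119). DLD went from 521 ± 59.5 to 333 ± 89.5 CPM (log2 -0.65 with SE 0.25, adjusted p 0.156). Their groups did not overlap, as was so for 7 higher genes of this list. Their values without both libraries numbered 1 are not given here.

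Of 32 genes of BMP and TGF-beta signalling with canal T-box factors 3 rose and 0 fell, with a median of 0.27 (9 higher and 2 lower at an unadjusted p under 0.05; DESeq2 6 and 1). ID2 rose from 24.99 ± 7.21 to 96.6 ± 25.8 CPM (log2 1.95 with SE 0.27, adjusted p 0.00331). SMAD6 ENSDARG00000053209, an inhibitor within the BMP pathway, rose from 38.3 ± 6.60 to 106 ± 20.6 CPM (log2 1.47 with SE 0.22, adjusted p 0.00393). The ligand gene BMP6 rose from 8.27 ± 2.57 to 21.1 ± 8.16 CPM (log2 1.35 with SE 0.35), a call lost without any 1 library other than mutant replicate 1 (adjusted p up to 0.135). The BMP6 call was also lost with replicate number as a block. The calls of ID2, SMAD6 and S1PR1 held whichever library was left out and without both libraries numbered 1.

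Of 41 further Wnt pathway genes 0 rose and 1 fell, with a median of -0.01 (3 higher and 3 lower at an unadjusted p under 0.05; DESeq2 1 and 2). The Wnt co-receptor gene ROR2 fell from 47.7 ± 5.22 to 29.0 ± 1.89 CPM (log2 -0.72 with SE 0.18, adjusted p 0.0395). That call was lost without any 1 library other than control replicate 1, without both libraries numbered 1, and with library size alone as scaling (adjusted p up to 0.166). Of 13 NFAT and calcineurin genes 0 rose and 1 fell, with a median of -0.03 (0 higher and 4 lower at an unadjusted p under 0.05; DESeq2 0 and 1). RCAN3, which encodes a calcineurin regulator, fell from 20.9 ± 3.15 to 7.22 ± 2.89 CPM (log2 -1.53 with SE 0.32), a call lost without control replicate 2 or 3 or mutant replicate 3 (adjusted p up to 0.0733).

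Of 7 other endothelin pathway genes 1 rose and 0 fell, with a median of 0.21 (3 higher and 1 lower at an unadjusted p under 0.05; DESeq2 1 and 0). ECE1, the protease that cleaves the endothelin precursor to its active form, rose from 59.5 ± 8.20 to 101.8 ± 5.03 CPM (log2 0.77 with SE 0.18, adjusted p 0.0275). The ECE1 libraries were close within each group, at 50.03, 64.6 and 63.8 CPM in control and 101.5, 106.9 and 96.9 CPM in the mutants. The call was lost without any 1 library other than mutant replicate 1 and without both libraries numbered 1 (adjusted p up to 0.1101).

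Of 27 genes of hyaluronan and versican matrix 1 rose and 1 fell, with a median of 0.34 (7 higher and 3 lower at an unadjusted p under 0.05; DESeq2 5 and 1). With library size alone as scaling, 4 rose and 1 fell. The lectican gene bcan, a relative of versican, rose from 1.24 ± 0.516 to 17.5 ± 16.7 CPM (log2 3.80 with SE 0.72, adjusted p 0.0124); it passed the low-count filter only through its mutant libraries. Mutant replicate 1 held 36.8 CPM of bcan against 8.89 and 6.93 CPM; its log2 fold change was 2.67 without that library and 2.40 without both libraries numbered 1, and the call was lost without control replicate 2 or 3 (adjusted p up to 0.0543). HAPLN3, a hyaluronan link protein gene, fell from 18.4 ± 2.93 to 6.47 ± 2.71 CPM (log2 -1.50 with SE 0.32), a call lost without any 1 library other than control replicate 2 or mutant replicate 3, and without both libraries numbered 1 (adjusted p up to 0.104).

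Of 34 genes of valve mesenchyme and fibrous matrix 2 rose and 1 fell, with a median of 0.21 (9 higher and 2 lower at an unadjusted p under 0.05; DESeq2 6 and 2). With library size alone as scaling, 4 rose and 1 fell. ERBB3, a neuregulin receptor gene, rose from 4.404 ± 2.51 to 39.7 ± 27.0 CPM (log2 3.17 with SE 0.55, adjusted p 0.00887), with 2.47 without mutant replicate 1 and 2.13 without both libraries numbered 1. FN1 ENSDARG00000019815 rose from 186.7 ± 27.4 to 521 ± 182.6 CPM (log2 1.48 with SE 0.28), a call lost without control replicate 3 (adjusted p 0.0759). The periostin gene POSTN ENSDARG00000104267 fell from 398.9 ± 103.7 to 187.0 ± 28.1 CPM (log2 -1.09 with SE 0.24). That call was lost without control replicates 2 or 3 or mutant replicate 2 (adjusted p up to 0.0875). The listed name postna also led to POSTN ENSDARG00000043806, which was not called. It went the other way, from 263.3 ± 4.55 to 408.9 ± 102.8 CPM (log2 0.63 with SE 0.22, adjusted p 0.120), and its groups did not overlap. Its value without both libraries numbered 1 is not given here.

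Markers of the cell types that the samples could hold moved in several directions beside these results. Of 8 endocardial and endothelial markers 0 were called (0 higher and 2 lower at an unadjusted p under 0.05; DESeq2 0 and 1), and their summed level was 1063 to 1456 CPM in control and 859 to 1057 CPM in the mutants. The median log2 fold change of these markers was -0.25, with 0 of 8 above 0. Over all tested genes the median was -0.01, with 8246 of 16707 above 0. cdh5, the endothelial cadherin gene, stood at 397 ± 137 and 338 ± 5.13 CPM, and the angiopoietin receptor gene tek at 176.8 ± 15.2 and 77.5 ± 42.5 CPM (adjusted p 0.0930). tek was called lower without mutant replicate 3 (log2 -1.64, adjusted p 0.0347) and by DESeq2. The order of these sums depends on the scaling: per total gene counts they were 1361, 895 and 1113 CPM in control and 1009, 996 and 1107 CPM in mutant replicates 1 to 3, where the groups overlap.

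Of 9 heart muscle markers 0 were called (0 higher and 1 lower at an unadjusted p under 0.05; DESeq2 0 and 3), with sums of 39836 to 48281 CPM in control and 18094 to 31538 CPM in the mutants. The median log2 fold change of the muscle markers was -0.64, with 0 of 9 above 0. Mutant replicate 1, the highest library for WNT9B, edn1, HAS2 and vcana, had the lowest muscle sum. Beside MYL7, the cardiac myosin light chain gene cmlc1 stood at 8698 ± 1951 and 4746 ± 1536 CPM. Of 8 epicardial and fibroblast markers 0 were called (3 higher and 0 lower at an unadjusted p under 0.05; DESeq2 0 and 0), with sums of 884 to 1306 and 1246 to 1902 CPM, and col1a1a and COL1A2 at 755 ± 179 and 547 ± 99.0 CPM in mutants against 492 ± 101 and 396 ± 104 CPM in controls. The epicardial and fibroblast median log2 fold change was 0.48, with 6 of 8 above 0. Of 10 smooth muscle and outflow tract identifiers 4 rose and 1 fell, with sums of 611 to 1167 and 761 to 1773 CPM. Among the risers, CNN1 ENSDARG00000017193 and MYLK ENSDARG00000004753 passed the low-count filter only through their mutant libraries. The listed name cnn1b led to CNN1 ENSDARG00000017193, which rose from 0.0408 to 24.2 CPM. It also led to CNN1 ENSDARG00000102398, which fell from 103.5 to 27.0 CPM. Whether the CNN1 and MYLK calls hold without both libraries numbered 1 is not given here. acta2 rose from 154.5 ± 9.88 to 350.7 ± 166 CPM, a call lost without any 1 control, mutant replicate 3, or both libraries numbered 1 (adjusted p up to 0.173). With replicate number as a block the acta2 call was lost too. elnb, the outflow tract elastin gene, spread widely in both groups, at 286 ± 264 and 249.8 ± 269 CPM.

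Blood and liver markers moved far more. Over all tested genes, 7.02% were called higher and 2.42% lower. The red cell marker hbaa1 passed the low-count filter only through its control libraries, and the liver marker ahsg1 only through its mutant libraries. All 6 tested red cell markers fell, with sums of 7471 to 12123 CPM in control and 34.5 to 119.5 CPM in the mutants; among them hbaa1 fell from 2832 ± 2200 to 6.86 ± 9.36 CPM (log2 -8.69; -7.90 without control replicate 1, -10.79 without mutant replicate 1 and -9.96 without both libraries numbered 1) and SLC4A1 ENSDARG00000012881 from 1992 ± 285 to 22.2 ± 12.7 CPM. All 6 liver markers rose, with sums of 115 to 132 and 2022 to 3407 CPM; tfa stood at 1312 ± 738 and apoa2 at 677 ± 176 CPM in mutants. All 6 tested macrophage and granulocyte markers rose, with sums of 91.4 to 136 and 459 to 501 CPM; csf1ra stood at 96.8 ± 21.3 and LCP1 at 98.6 ± 19.0 CPM in mutants. LCP1 was lost without control replicate 3 or mutant replicates 2 or 3 (adjusted p up to 0.118), and its log2 fold change of 1.91 was 2.56 without control replicate 2. Of 3 tested neuronal markers 0 were called (0 higher and 0 lower at an unadjusted p under 0.05 and by DESeq2), with sums of 8.20 to 15.01 and 7.204 to 28.5 CPM, ELAVL4 at 5.01 ± 1.43 and 8.10 ± 3.63 CPM and SNAP25 ENSDARG00000020609 at 3.89 ± 2.47 and 3.68 ± 2.73 CPM (log2 -0.081, and -1.24 without both libraries numbered 1); gap43 was at 0 in all 6 libraries. The part of these cell types in the rise of edn1, WNT11 and WNT9B was not tested.

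**Figure D5:**
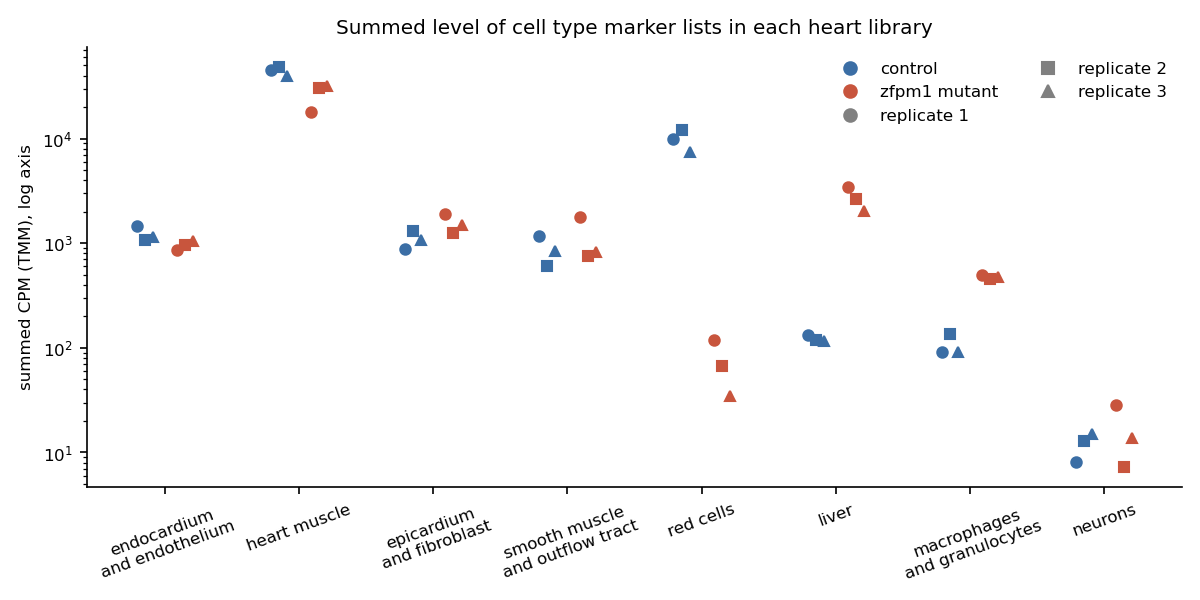
Summed TMM-scaled CPM of each cell type marker list in each heart library, on a log axis; blue is control, red is zfpm1 mutant, and symbols mark the replicate. Endocardial and endothelial sums lie between 859 and 1456 CPM, while red cell sums fall from at least 7471 to at most 119.5 CPM and liver sums rise from at most 132 to at least 2022 CPM.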

How the data were processed

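Each deposited file gives 1 library's unnormalised read counts by gene. HTSeq 0.6.1p1, TopHat2 2.2.1, Bowtie2 2.2.3, FastQC 0.11.5 and bcl2fastq are named in the submitters' processing notes, and GRCz10 as build. Counting by strand is not given in the sources used here, so reads of a gene and an antisense partner cannot be told apart. Reads that the counter gave to no gene, 60.5% to 64.9% of each heart file, were left out. Control and mutant replicate 1 also shared their counts of not-unique alignments with the matching embryo-labelled files, 2907502 and 2130930. Reads on no annotated feature were 47.5% and 48.8% of these heart files, against 9.53% and 10.0% of the matching files. The source of this difference was not tested. Genotypes were compared over the 6 hearts in R 4.3.3 using edgeR 4.0.16 (filterByExpr with a minimum count of 10, TMM, group as the only term); DESeq2 1.42.0 was an alternative. The 13 alternatives are another scaling (2), filter (2) and test (1), a replicate block (1), each library left out in turn (6), and both libraries numbered 1 left out (1). The fit was tested on simulated counts. Symbols came from a table that names 26121 of 31953 identifiers; a listed name was matched without regard to capitals, then in capitals without a final a or b. The members and lists were chosen with earlier results of these data known. Named by rule were all members, zfpm1, up to 4 called genes per pathway list by adjusted p, the pathway or member gene most like each member, and the 2 markers per list with the highest mean CPM. Further genes were named after their values had been seen. Embryo-labelled libraries, 1 per genotype, entered no test. Sequences and coordinates are not used here.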

Additional observations from a re-analysis of the deposited data

How the results depend on the processing

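Over 13 alternatives the members' log2 fold changes kept direction and side of the threshold in 124 refits; 8 lost the call, all of WNT11, and 11 turned sign, none of them in a called gene. Leaving out 1 library gave 604 to 1302 calls among all genes instead of 1576 (604 without control replicate 3 and 1034 without control replicate 2), 2 among the members and 5 to 16 among the pathway genes. DESeq2 called 33 pathway genes, 26 higher and 7 lower, against 16. With library size alone as scaling the median log2 fold change of all genes was 0.25 instead of -0.01, and 87.5% of calls were higher instead of 74.4%; edn1 and WNT11 then had 2.25 and 1.04. Correlations of deviations were 0.096, 0.22 and -0.083 for equal replicate numbers 1 to 3. For unlike numbers they ran from -0.26 to 0.14. These values cannot settle whether libraries were paired, and the numbers are not taken as pairs because the labels state no pairing. With a replicate block 1476 genes, 2 members and 16 pathway genes were called, and vcana was at -0.025. The calls of WNT11 (0.79, adjusted p 0.0656), HEY1 (0.0868), BMP6 (0.0895) and acta2 (0.0710) were then lost.

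Signs turned as follows, the cause not being tested. Without both libraries numbered 1 HAS2 was at -0.028, vcana at -0.73 and cdh5 at 0.085. With library size alone cdh5 was at 0.0097, elnb at 0.092 and SNAP25 at 0.24. With 1 library left out the ranges were -0.023 to 0.60 for klf2b, -0.15 to 0.65 for NFATC1, -0.14 to 0.40 for NOTCH1 ENSDARG00000052094, -0.073 to 0.45 for HAS2, -0.61 to 0.58 for vcana, -0.78 to 0.58 for WNT9A, -0.44 to 0.065 for cdh5, -1.59 to 0.78 for elnb and -0.85 to 0.48 for SNAP25. Over the control hearts WNT9B had 0 counts, WNT9A 54, vcana 155, edn1 166 and HAS2 232, which limits their precision.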

Other observations

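Some pathway genes lay just outside the threshold, and were picked after their values had been seen. HAS1, a paralog of the hyaluronan synthase gene HAS2, stood at 1.49 ± 0.673 CPM in control and 6.23 ± 3.58 CPM in the mutants (SD, n = 3 each; log2 2.05, SE 0.56, edgeR adjusted p 0.0542, and 0.00793 with DESeq2). It passed the low-count filter only through its mutant libraries. It was higher in 3 of 3 mutant libraries than in any control, but fell to a log2 fold change of 1.17 (adjusted p 0.279) without both libraries numbered 1. XYLT1, whose enzyme starts the sugar chains of proteoglycans, stood at 2.73 ± 0.769 and 6.95 ± 0.684 CPM (log2 1.34 with SE 0.37, adjusted p 0.0525; 1.502 and 0.112 without both libraries numbered 1). ID3, a BMP-induced relative of ID2, stood at 21.9 ± 4.37 and 41.1 ± 9.89 CPM (log2 0.91 with SE 0.25, adjusted p 0.0525; 0.57 and 0.185 without both libraries numbered 1).

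In the libraries labelled as embryo some of the members had these counts, with no test since there is 1 library per label. The library labelled control embryo, whose total matches mutant heart replicate 1, held 567 counts of edn1, 1547 of WNT11 and 2242 of klf2a. The library labelled mutant embryo, whose total matches control heart replicate 1, held 135, 815 and 1300. By count the second was the higher for NFATC1 (1147 against 918) and WNT9A (54 against 49). It was also higher for NOTCH1 ENSDARG00000052094 (5257 against 3714) and NOTCH1 ENSDARG00000103554 (636 against 408). As the totals match those of heart libraries, these counts are not taken as observations separate from those hearts. Relative to total gene counts edn1 was at 38.6 CPM in the first and 8.06 CPM in the second.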
